A study of Mus musculus with 6 samples.

Results

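The anaphase-promoting complex, or cyclosome (APC/C), and its regulators were followed here in cultured mouse neural stem cells (NSCs) that lack miR-151 and in their controls. The 10 genes were chosen by name for their roles, with earlier results of these data known. They were the coactivators Cdc20 and Fzr1, the ubiquitin-conjugating enzymes Ube2c and Ube2s and the inhibitor Fbxo5. Securin (Pttg1), separase (Espl1) and the core subunits Cdc27, Cdc16 and Anapc11 completed the set. All 10 had a row among the 32493 genes of the count table, and all 10 were among the 16710 genes left for testing after a filter on low counts.

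The study asked how loss of miR-151-5p changes NSC behaviour, and RNA-seq of total RNA compared conditional knockout (cko) with control (ctrl) cells. In cko mice both miR-151 alleles were flanked by loxP sites (fl/fl) and removed by Emx1-IRES-Cre, which is expressed in the dorsal telencephalon, so cells that never expressed Emx1 keep the allele. The ctrl mice carried the same fl/fl alleles without Cre, although the labels call them wt, and both were on a C57BL/6J background. NSCs were taken at E14.5 and grown for 3 generations with EGF and bFGF before RNA was isolated. The comparison rests on 5 libraries: ctrl replicates 1 and 3, with 22773559 and 18950862 counts, and cko replicates 1, 2 and 3, with 17883796, 23335736 and 21736269. The column of ctrl replicate 2 was left out, because averaging the other ctrl columns and rounding up gives its value in 32493 of 32493 genes. The labels do not say that the libraries came from separate cultures or animals, so every p-value measures only the spread between these libraries, which may be technical.

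The APC/C is a large ubiquitin ligase that marks proteins for destruction by the proteasome and so drives cells out of mitosis. Its core subunits are made throughout the cell cycle, and activity is set by coactivators: CDC20 recruits substrates in mitosis and CDH1, the product of Fzr1, takes over at mitotic exit and in G1. UBE2C starts and UBE2S extends the ubiquitin chains, EMI1 (Fbxo5) and the mitotic checkpoint hold the complex back, and at anaphase it destroys securin, which frees separase to cleave cohesin. In the developing cortex, NSCs divide at the ventricular surface, and their cell cycle is closely tied to the choice between self-renewal and differentiation.

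The knockout itself could not be read from these counts, since Mir151 had no row in the table. Its host gene Ptk2 had normalized counts in CPM (counts over library size, scaled by TMM factors) of 133 and 150 in ctrl 1 and 3 and of 142, 138 and 140 in cko 1, 2 and 3, and the genotypes overlapped. Emx1, whose promoter drives Cre, was near the limit of detection in the cultures, at 0.437 and 0.48 CPM in ctrl 1 and 3 and 0.056, 0.171 and 0.276 CPM in cko 1, 2 and 3. A gene with 0 counts in a library could still lie at up to 3 counts, or 0.129 to 0.168 CPM, a floor that covers counting error only.

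Of the 10 genes, 6 were called higher in cko by edgeR's quasi-likelihood test (Benjamini-Hochberg adjusted p under 0.05 over all 16710 genes), against 7.86% of all genes tested. Only Pttg1 was called lower, against 8.57% of all genes. Cdc20, Ube2c, Fbxo5 and Espl1 also passed the study's own threshold in the higher direction (log2 fold change beyond 0.9 and unadjusted p under 0.01), as did 2.39% of all genes. In the lower direction 0 of the 10 passed it, as did 4.17% of all genes. The study set this threshold on DESeq2 results, while here it was set on the edgeR fit of 5 libraries. The cko libraries lay above every ctrl library for 9 of the 10 genes, a pattern found in 25.4% of all genes, and below them for Pttg1, as in 24.3% of all genes. Without cko 2 or without cko 3, only Cdc20, Ube2c and Fbxo5 were called higher, 3 of 10, and 0 lower. In these smaller fits edgeR called 1.95% and 2.06% of all genes higher and 2.55% and 2.80% lower. The median log2 fold change (cko against ctrl) was 0.50 over the 10 genes and 0.00 over all genes tested. These are bulk libraries, so a change in the share of cells in mitosis and a change in RNA per cell cannot be told apart.

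**Figure D1:**
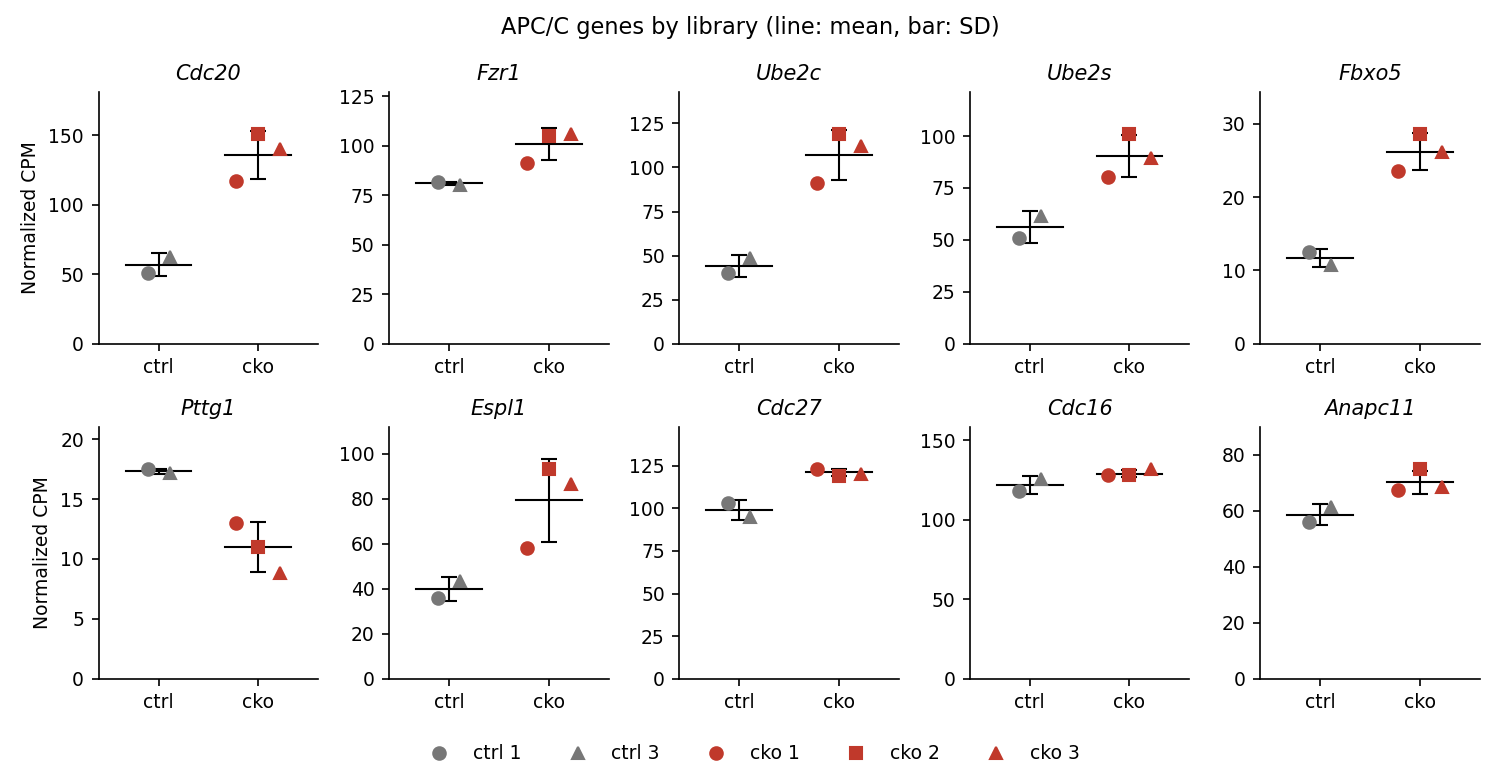
Normalized CPM of the 10 genes in each library, with 1 panel a gene, the y axis starting at 0, lines at group means and bars of 1 SD (ctrl, n = 2; cko, n = 3). In 9 panels the 3 cko libraries lie above both ctrl libraries, and in the panel of Pttg1 they lie below both.

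Cdc20, the mitotic coactivator, had 51.0 and 62.5 CPM in ctrl 1 and 3 and 117, 151 and 140 CPM in cko 1, 2 and 3. The lowest cko library was well above the higher ctrl library, and the raw counts behind the values ran from 1167 to 3527. The rise was 2.40-fold (log2 fold change 1.26 ± 0.14 SE, 95% interval 0.94 to 1.58, adjusted p = 0.00239 in edgeR's quasi-likelihood test with Benjamini-Hochberg adjustment). A similar sequence, Gm7856, aligned to 84.3% of the Cdc20 transcript at 93.7% identity, but it held at most 2 counts in any library. The antisense gene Elovl1 shares 53 exonic bases with Cdc20 and had a log2 fold change of -0.11.

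Fzr1 encodes CDH1, the coactivator of late mitosis and G1. Its values were 81.5 and 80.4 CPM in ctrl 1 and 3 and 91.4, 105 and 106 CPM in cko 1, 2 and 3. The ctrl libraries were almost level and the cko libraries all stood above them, yet the gene narrowly missed the threshold (log2 fold change 0.32 ± 0.09 SE, adjusted p = 0.0509 in edgeR's quasi-likelihood test with Benjamini-Hochberg adjustment). It passed in 3 of 11 other settings on these libraries, with adjusted p from 0.0187 to 0.197 over edgeR and DESeq2 fits. It also passed with all 6 columns (edgeR adjusted p = 0.00926), a fit that takes the averaged column as a further ctrl library, understates the spread and so is no evidence. Its 95% interval, 0.11 to 0.53, lay wholly below that of Cdc20.

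The coactivators can also be compared within a library, where normalization plays no part. The ratio of Cdc20 to Fzr1 counts was 0.625 and 0.778 in ctrl 1 and 3 and 1.28, 1.43 and 1.32 in cko 1, 2 and 3. Fzr1 had the higher count in both ctrl libraries and Cdc20 in all 3 cko libraries. Per kilobase of transcript, Cdc20 was above Fzr1 in ctrl too: 28.4 against 26.7 CPM in ctrl 1 and 34.9 against 26.3 in ctrl 3. The difference in log2 ratio was 0.95, with an exact two-sided permutation p = 0.2, the smallest that 2 against 3 libraries allow, so no ratio could pass 0.05 in this design.

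Ube2c, which builds the first ubiquitins on APC/C substrates, had 40.0 and 48.7 CPM in ctrl 1 and 3 and 91.1, 119 and 112 CPM in cko 1, 2 and 3. The genotypes were far apart relative to the spread within each. It rose 2.42-fold (log2 fold change 1.28 ± 0.14 SE, adjusted p = 0.00248 in edgeR's quasi-likelihood test with Benjamini-Hochberg adjustment), the largest log2 fold change among the 10. The opposite-strand gene Tnnc2 covers 22.8% of its exonic length, with a mean of 0 CPM in ctrl and 0.046 CPM in cko. A second similar sequence, AC151284.1, matched 48.2% of the Ube2c transcript and had 66 and 67 counts in ctrl and 48, 51 and 48 in cko.

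Ube2s, which lengthens the chains, had 50.9 and 61.6 CPM in ctrl 1 and 3 and 80.5, 101 and 89.3 CPM in cko 1, 2 and 3. Every cko library was above both ctrl libraries, by less than for Ube2c. The log2 fold change was 0.68 ± 0.12 SE (adjusted p = 0.0126 in edgeR's quasi-likelihood test with Benjamini-Hochberg adjustment). Without cko 2 or cko 3 the edgeR adjusted p was 0.0626 or 0.0644, the highest over 11 other settings on these libraries. The lowest, 5.8e-09, came only from edgeR without the low-count filter, and DESeq2 gave an adjusted p of 0.000121. The ribosomal protein gene Rpl28 shares 183 exonic bases on the other strand and had a log2 fold change of 0.21. The ratio of Ube2c to Ube2s counts was 0.785 and 0.79 in ctrl 1 and 3 and 1.13, 1.18 and 1.25 in cko 1, 2 and 3. The chain-starting enzyme thus went from fewer counts than the chain-extending enzyme to more, a log2 difference of 0.59 (exact two-sided permutation p = 0.2). Per kilobase of transcript, Ube2c and Ube2s were already level in ctrl, at means of 45.8 and 45.4 CPM.

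Fbxo5 encodes EMI1, which blocks the APC/C from the start of S phase until mitosis. It had 12.5 and 10.8 CPM in ctrl 1 and 3 and 23.6, 28.6 and 26.2 CPM in cko 1, 2 and 3. The lowest cko library was far above the higher ctrl library, and the rise was 2.24-fold (log2 fold change 1.17 ± 0.14 SE, adjusted p = 0.00287 in edgeR's quasi-likelihood test with Benjamini-Hochberg adjustment). Counts were the lowest of the called higher genes, from 202 to 668. A transcript of Glcci1 holds a 91.2% identical stretch of Fbxo5 on the opposite strand and had 194 and 156 counts in ctrl and 180, 304 and 276 in cko. Whether reads of one were counted for the other was not tested. Against the coactivator that EMI1 restrains, the ratio of Fbxo5 to Fzr1 counts was 0.154 and 0.134 in ctrl 1 and 3 and 0.258, 0.272 and 0.248 in cko 1, 2 and 3. This inhibitor gained on Fzr1 by a log2 difference of 0.85 (exact two-sided permutation p = 0.2).

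Pttg1 encodes securin, the inhibitor and chaperone of separase that the APC/C destroys at anaphase. It went the other way: 17.5 and 17.2 CPM in ctrl 1 and 3 against 13.0, 11.0 and 8.87 CPM in cko 1, 2 and 3. All 3 cko libraries were below both ctrl libraries, and the ctrl libraries were nearly equal while the cko libraries spread widely. The fitted level in cko was 0.631 times that in ctrl (log2 fold change -0.67 ± 0.17 SE, 95% interval -1.07 to -0.26, adjusted p = 0.0403 in edgeR's quasi-likelihood test with Benjamini-Hochberg adjustment). Counts ran from 193 to 401. The call was lost with the replicate number as a block (edgeR adjusted p = 0.0543), without cko 2 (0.14) and without cko 3 (0.124). The log2 fold change stayed between -0.81 and -0.54 over 11 other settings on these libraries. The lowest adjusted p among them, 0.0015, came from edgeR without the low-count filter, and the highest was 0.14. No exon of another annotated gene overlaps Pttg1, and no other annotated transcript matched it over 250 bases or more at 90% identity.

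Espl1, the separase that securin holds, had 36.0 and 43.5 CPM in ctrl 1 and 3 and 58.3, 93.2 and 86.4 CPM in cko 1, 2 and 3. The genotypes did not overlap, but cko 1 was nearer to the ctrl libraries than to cko 2 or cko 3. The rise was 2.0-fold (log2 fold change 1.00 ± 0.20 SE, adjusted p = 0.0176 in edgeR's quasi-likelihood test with Benjamini-Hochberg adjustment). Without cko 2 or cko 3 the edgeR adjusted p was 0.0725 or 0.0803, the highest over 11 other settings on these libraries. The lowest, 3.73e-17, came only from edgeR without the low-count filter, and DESeq2 gave an adjusted p of 6.29e-05.

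Securin and separase form 1 complex, and their counts parted. The ratio of Pttg1 to Espl1 counts was 0.487 and 0.395 in ctrl 1 and 3 and 0.224, 0.118 and 0.103 in cko 1, 2 and 3. Every cko library had the lower ratio, with cko 1 between the ctrl libraries and the other cko libraries. The mean ratio was 3.15-fold lower in cko (difference in log2 ratio -1.65, exact two-sided permutation p = 0.2), the widest shift of the 5 ratios computed.

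**Figure D2:**
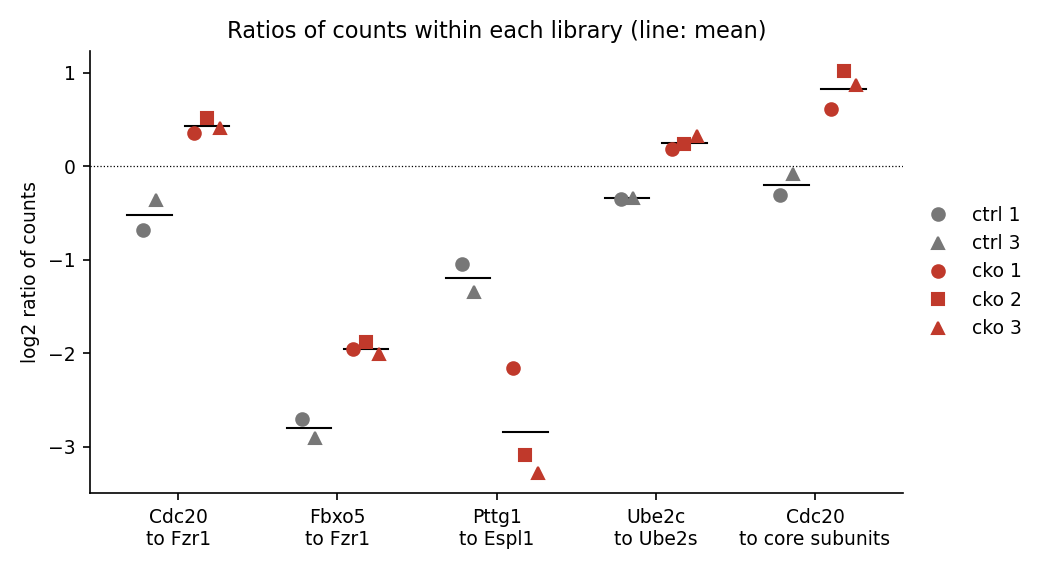
Log2 ratio of counts within each library for 5 pairs, with points for libraries and lines at group means; a ratio of counts is not corrected for transcript length. The groups are apart in all 5 pairs, and Pttg1 to Espl1 falls while the other 4 rise, by 0.59 to 1.03.

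Among the core subunits, Cdc27, a scaffold protein that binds the coactivators, had 103 and 94.8 CPM in ctrl 1 and 3 and 123, 119 and 120 CPM in cko 1, 2 and 3. The cko libraries were tightly grouped above the ctrl libraries (log2 fold change 0.29 ± 0.07 SE, adjusted p = 0.0397 in edgeR's quasi-likelihood test with Benjamini-Hochberg adjustment). This call did not survive the replicate block (edgeR adjusted p = 0.128) or leaving out ctrl 3 (0.0725), cko 1 (0.0954), cko 2 (0.148) or cko 3 (0.155), and its adjusted p over 11 settings on these libraries began at 0.018.

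Cdc16, a second scaffold subunit, had 118 and 126 CPM in ctrl 1 and 3 and 128, 128 and 132 CPM in cko 1, 2 and 3. Its libraries were almost level across genotypes, and the log2 fold change was 0.09 ± 0.07 SE (95% interval -0.08 to 0.25, adjusted p = 0.432 in edgeR's quasi-likelihood test with Benjamini-Hochberg adjustment). The interval leaves room for a rise of up to 0.25 on the log2 scale.

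Anapc11, the RING subunit that receives the ubiquitin-loaded enzyme, had 55.9 and 61.3 CPM in ctrl 1 and 3 and 67.3, 74.9 and 68.4 CPM in cko 1, 2 and 3. The cko libraries were all higher, with a log2 fold change of 0.26 ± 0.09 SE that missed the threshold (adjusted p = 0.0815 in edgeR's quasi-likelihood test with Benjamini-Hochberg adjustment). It passed without ctrl 3 (edgeR adjusted p = 0.0403), in a range of 0.0403 to 0.288 over 11 settings on these libraries. A pass with all 6 columns (edgeR adjusted p = 0.0164) rests on the averaged column and is no evidence.

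The whole core complex was then described from a list of 14 subunit genes. Of the 14 tested, edgeR called 2 higher, Cdc27 and Anapc5, and 0 lower, against 7.86% and 8.57% of all genes. At an unadjusted p under 0.05 the counts were 7 and 0, against 15.9% and 16.7% of all genes, with a median log2 fold change of 0.23 against 0.00 for all genes. By DESeq2, 6 were called higher and 0 lower, against 9.46% and 10.2% of all genes. The edgeR count of higher calls was 4 without ctrl 1 (9.74% of all genes) and 0 without cko 1, cko 2 or cko 3 (5.18%, 1.95% and 2.06% of all genes). Anapc5, part of the platform that joins the arms of the complex, had 262 and 246 CPM in ctrl 1 and 3 and 296, 311 and 315 CPM in cko 1, 2 and 3 (adjusted p = 0.0463 in edgeR's quasi-likelihood test with Benjamini-Hochberg adjustment). Its cko libraries were above both ctrl libraries, but 6 of 12 settings ended the call. The edgeR adjusted p was 0.0506 with at least 10 counts in every library, 0.196 with the replicate block, 0.0597 without ctrl 3, and 0.0719, 0.195 and 0.196 without cko 1, 2 and 3. Anapc16 was the only subunit with a negative log2 fold change, -0.10, and its genotypes overlapped. The log2 fold changes of the other 13 ran up to 0.56, that of Anapc13, which was not called. Anapc7, Cdc23 and Anapc13 were just outside the threshold, with edgeR's Benjamini-Hochberg adjusted p of 0.0521, 0.0535 and 0.0555. Cdc23 shares 1271 exonic bases with the mitotic kinesin gene Kif20a on the other strand, which had a log2 fold change of 1.06. Those reads cannot be assigned without strand.

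Summed over the 14 subunits, the level was 1340 and 1321 CPM in ctrl 1 and 3 and 1508, 1530 and 1525 CPM in cko 1, 2 and 3. The sum, which the abundant subunits dominate, was higher in each cko library, although Anapc2, Anapc10 and Anapc16 overlapped between genotypes. The ratio of Cdc20 counts to the geometric mean of the subunit counts was 0.804 and 0.947 in ctrl 1 and 3 and 1.52, 2.03 and 1.83 in cko 1, 2 and 3. The coactivator went from below the average subunit to above it in counts, a log2 difference of 1.03 (exact two-sided permutation p = 0.2). These counts are not corrected for transcript length. Per kilobase of transcript, mean Cdc20 in ctrl, 31.7 CPM, was already above the means of most subunits. Only Anapc2 (51.0), Anapc5 (92.1), Cdc16 (52.9) and Cdc26 (50.6) stood higher in ctrl.

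**Figure D3:**
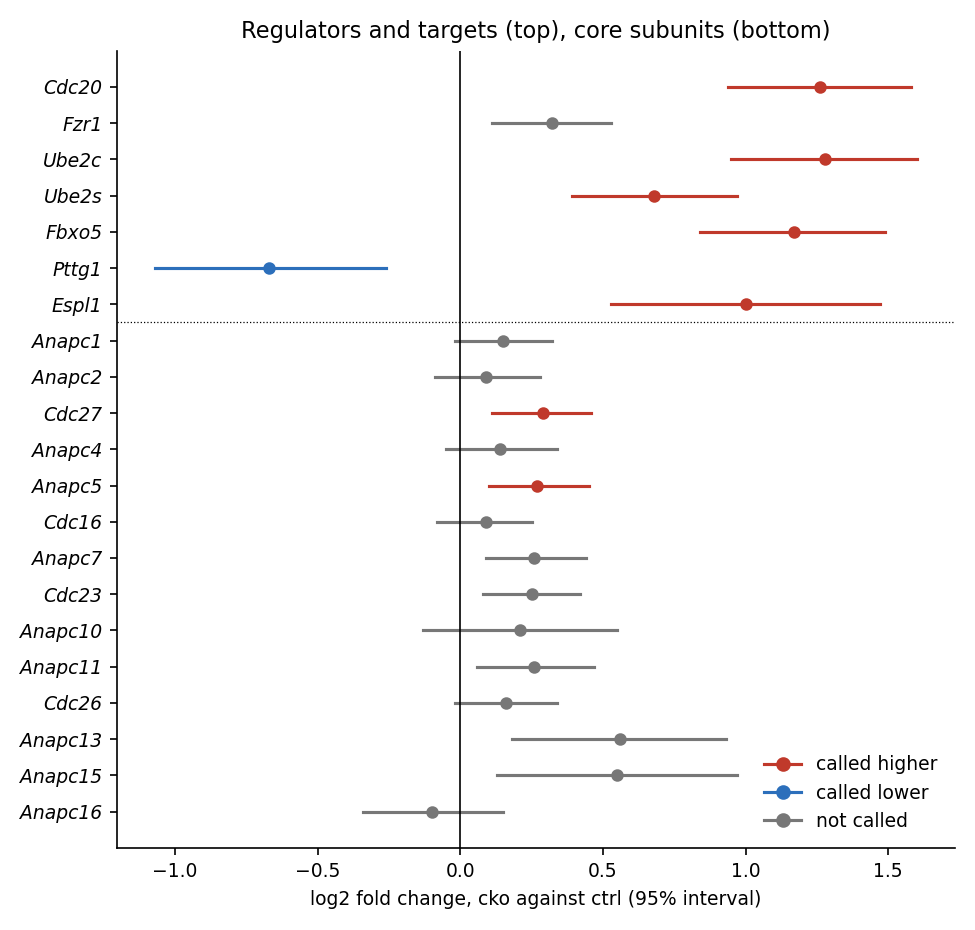
Log2 fold change of cko against ctrl with its 95% interval for the regulators and targets (above the dotted line) and the 14 core subunits (below it), coloured by the call at an adjusted p under 0.05. The core subunits lie between -0.10 and 0.56, Cdc20, Ube2c, Fbxo5 and Espl1 at 1.00 or more, and Pttg1 at -0.67.

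Levels of different genes can be compared only per length, so normalized CPM was divided by the length of the longest principal coding transcript (CPM per kilobase). Which isoforms the cells used was not measured. In ctrl, Cdc16 had the highest level, 52.9 ± 2.42 (SD, n = 2) CPM per kilobase. Ube2c and Ube2s came next at 45.8 ± 6.36 and 45.4 ± 6.13 (SD, n = 2), and these 3 lay within their spread of each other. Cdc20 (31.7 ± 4.56) and Fzr1 (26.5 ± 0.277) followed, and Pttg1, Cdc27 and Anapc11 were indistinguishable at 18.3 ± 0.251, 18.2 ± 1.08 and 18.1 ± 1.18. Fbxo5 and Espl1 were lowest, at 6.01 ± 0.641 and 5.97 ± 0.801. In cko the order changed at both ends. Ube2c led at 111 ± 14.8 (SD, n = 3) CPM per kilobase, ahead of Cdc20 at 75.9 ± 9.71 and Ube2s at 72.8 ± 8.19, which overlapped. Cdc16 (56.2 ± 0.917), Fzr1 (33.0 ± 2.68), Cdc27 (22.2 ± 0.373) and Anapc11 (21.7 ± 1.28) came below them, the last pair within their spread. Pttg1, at 11.6 ± 2.20, had joined Espl1 (11.9 ± 2.78) and Fbxo5 (13.5 ± 1.30) at the foot of the order.

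The promoters of the 10 genes were searched because several of the genes rose together. RefSeq promoters (GRCm38.p6, 250 bases before to 50 after the start) matched 10 of 10 genes by symbol, with 2 for Anapc11. The cell cycle genes homology region (CHR), through which many late cell cycle genes are repressed outside G2 and mitosis, was searched as TTTGAA or TTCGAA on both strands. It was found in Cdc20, Ube2c, Ube2s, Fbxo5 and Espl1, 5 of 10 genes, against 19.2% of 32851 promoters and 21.7% of 27025 genes. Windows of 30 bases around it are shown for these 5 genes, written 5′ to 3′ on the strand of the gene, with every CHR match and CCAAT match in capitals. Matches on the opposite strand read TTCAAA or ATTGG here.
Cdc20, chr4:118437344-118437373: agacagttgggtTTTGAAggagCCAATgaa
Ube2c, chr2:164769888-164769917: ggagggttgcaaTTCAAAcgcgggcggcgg
Ube2s, chr7:4812485-4812514: tcacaaactgggTTCGAActtctgctacta
Fbxo5, chr10:5805445-5805474: ttgggcaccaaaTTCAAAgattttaaaagt
Espl1, chr15:102296245-102296274: gctgATTGGtcactagggataTTTGAAagg
The CHR match began 18 bases before the RefSeq start in Cdc20, 29 in Ube2c, 27 in Espl1 and 162 in Ube2s, and after the start, at base 4, in Fbxo5. By GENCODE exons, whose starts differ, 9 of the 30 bases shown for Cdc20 and Espl1 are exonic, 20 for Ube2c and all 30 for Ube2s and Fbxo5.

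The CCAAT box, a site of the factor NF-Y that often accompanies a CHR, was searched as CCAAT on both strands. It was found in 7 of 10 genes, against 37.4% of promoters and 41.1% of genes, and the promoter of Ube2c alone held 6. CHR and CCAAT matches stood together in Cdc20, Ube2c, Fbxo5 and Espl1, the 4 genes past the study's threshold, and in 7.52% of all promoters and 9.65% of genes, counting matches in any promoter of a gene. Outside the 10 genes the motifs and the threshold did not always go together. Skp2, Cdc14a, Bub3, Kifc1 and Cks1b held both motifs and did not pass it, and Mad2l1, Nusap1 and Tacc3 held neither and passed. Of the other listed genes, Bub1b, Sgo1, Aurka, Plk1, Bub1, Ttk, Kif22, Hmmr, Cdca3, Cenpf and Ccnf held both and passed. E2F sites (TTCCCGC or TTGGCGC or TTGCCGC or TTCGCGC on either strand) were found in 1 of 10 genes, Anapc11, against 9.57% of promoters and 10.9% of genes. No CHR, CCAAT or E2F match was in the 300 bases of Pttg1 or Cdc16, which says only that these letters are not in that window. Matches of different motifs shared no bases, and a pair of CCAAT matches in Ube2c overlapped by 2 bases. Among listed genes with a promoter, a CHR was found in 2 of 13 core subunits, 3 of 5 coactivators and conjugating enzymes, 4 of 6 inhibitors, 3 of 5 genes of the securin list, 12 of 25 other substrates, 1 of 3 deubiquitinases and phosphatases and 4 of 8 SCF genes. The SCF genes thus held it as often as the 10 genes did. Binding to these letters was not measured here.

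**Figure D4:**
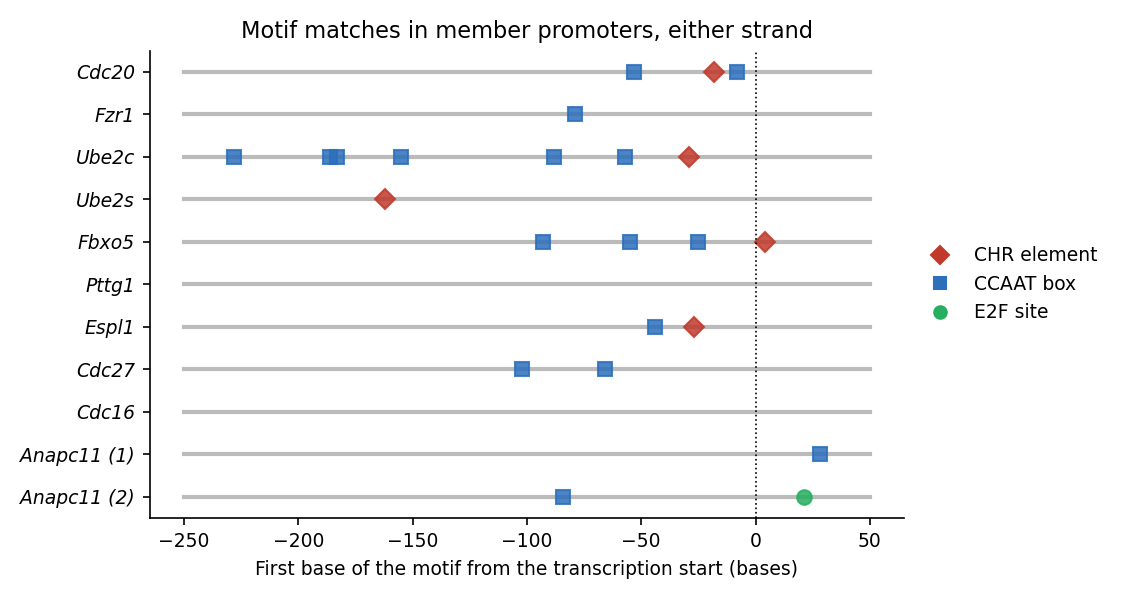
Position of each motif match, as bases from the RefSeq transcription start, in the 300-base promoters of the 10 genes; Anapc11 has 2 promoters, marked (1) and (2). CHR matches lie within 29 bases of the start in 4 genes and at 162 bases before it in Ube2s, and Pttg1 and Cdc16 hold no match.

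The genes whose profile was closest to that of Cdc20, by distance between centred log2(CPM + 1) values over the 5 libraries, were Ube2c (0.0289), Fanci (0.0452), Cdk1 (0.0837), Esco2 (0.0881) and Ckap2l (0.1). Another of the 10 was thus the nearest of all genes tested. Fbxo5 ranked 153 and Espl1 163 in distance from Cdc20, Ube2s 409, and Fzr1, Anapc11, Cdc27 and Cdc16 between 1972 and 5622. Pttg1 ranked 15614, near the far end of the 16710 genes. With 5 libraries in 2 groups, such a profile is mostly the difference between genotypes.

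The rest of the pathway was described from lists of named genes, also chosen with earlier results of these data known. The counts of each list stand beside shares of all genes called higher and lower of 7.86% and 8.57% by edgeR, 9.46% and 10.2% by DESeq2 and 15.9% and 16.7% at an unadjusted p under 0.05. Without cko 2 the edgeR shares were 1.95% and 2.55%, and without cko 3 they were 2.06% and 2.80%. Of 5 coactivators and ubiquitin-conjugating enzymes, edgeR called 3 higher (Cdc20, Ube2c and Ube2s) and 0 lower (at an unadjusted p under 0.05, 4 and 0; by DESeq2, 4 and 0), with a median log2 fold change of 0.68. Ube2d1, a more general conjugating enzyme that can also start chains, had 59.8 and 53.0 CPM in ctrl 1 and 3 and 62.9, 62.5 and 62.4 CPM in cko 1, 2 and 3 and was not called.

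Of 7 inhibitors and mitotic checkpoint genes, 6 were tested and edgeR called 5 higher and 0 lower, as did DESeq2 and an unadjusted p under 0.05 (higher among all genes 7.86%, 9.46% and 15.9%), with a median of 1.04. Without cko 2 or without cko 3 the count was 3 (1.95% and 2.06% of all genes). Mad2l1, the checkpoint protein that seizes CDC20, had 33.3 and 33.7 CPM in ctrl 1 and 3 and 59.4, 74.8 and 72.9 CPM in cko 1, 2 and 3. Its cko libraries were all far above the ctrl pair (log2 fold change 1.04 ± 0.12 SE, adjusted p = 0.00253 in edgeR's quasi-likelihood test with Benjamini-Hochberg adjustment). Bub1b, whose product BUBR1 joins it in the checkpoint complex, had 45.5 and 49.9 CPM in ctrl 1 and 3 and 85.5, 111 and 109 CPM in cko 1, 2 and 3. Its genotypes were as far apart, with a log2 fold change of 1.09 ± 0.13 SE (adjusted p = 0.00287 in edgeR's quasi-likelihood test with Benjamini-Hochberg adjustment). Bub3 and Trip13, the latter an ATPase that takes the checkpoint complex apart, were also called, and without cko 2 or cko 3 neither was, with edgeR's Benjamini-Hochberg adjusted p between 0.0691 and 0.0849. Mad2l1bp, an adaptor of that ATPase, was not called (log2 fold change 0.42 ± 0.22 SE). The germline inhibitor Fbxo43 was removed by the filter, at 0.267 CPM or less in every library.

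Of 6 genes for securin, separase and the guarding of cohesion, 5 were called higher and 1, Pttg1, lower (7.86% and 8.57% of all genes), with a median of 0.93. Without cko 2 or without cko 3 these counts were 3 and 0, Sgo2a and Espl1 also losing their calls (for Sgo2a an edgeR adjusted p of 0.0599 and 0.0606). Sgo1, which protects centromeric cohesin until anaphase, had 12.3 and 12.5 CPM in ctrl 1 and 3 and 25.8, 29.8 and 30.2 CPM in cko 1, 2 and 3. The genotypes were far apart (log2 fold change 1.21 ± 0.12 SE, adjusted p = 0.00195 in edgeR's quasi-likelihood test with Benjamini-Hochberg adjustment). Cdca5, or sororin, which locks cohesin on replicated DNA and is itself an APC/C target, had 8.69 and 11.1 CPM in ctrl 1 and 3 and 20.6, 25.3 and 24.2 CPM in cko 1, 2 and 3. Rad21, the cohesin subunit that separase cleaves, was far more abundant, at 337 and 322 CPM in ctrl 1 and 3 and 466, 496 and 495 CPM in cko 1, 2 and 3, and rose less (log2 fold change 0.56 ± 0.08 SE, adjusted p = 0.00465 in edgeR's quasi-likelihood test with Benjamini-Hochberg adjustment). Securin was therefore the only gene of this list, and of the 10 chosen genes, whose cko libraries were below the ctrl libraries.

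The other substrates of the APC/C made the longest list. Of 33 genes, 32 were tested and edgeR called 26 higher and 0 lower (at an unadjusted p under 0.05, 28 and 0; by DESeq2, 26 and 0; higher among all genes 7.86%, 15.9% and 9.46%), with a median log2 fold change of 1.08. The edgeR count was 19 without cko 2 and 19 without cko 3 (1.95% and 2.06% of all genes), as Aurkb, Kifc1, Rrm2, Tk1, Clspn, Usp1 and Id2 lost their calls (edgeR adjusted p from 0.0525 to 0.146), Tk1 also without ctrl 1 (0.0696). Dlgap5, a spindle protein, had 27 and 28.7 CPM in ctrl 1 and 3 and 64.8, 81.4 and 77.0 CPM in cko 1, 2 and 3. Ccnb1, the mitotic cyclin whose loss ends mitosis, had 77.4 and 86.7 CPM in ctrl 1 and 3 and 180, 230 and 210 CPM in cko 1, 2 and 3. Cenpf, a kinetochore protein, had 110 and 98.4 CPM in ctrl 1 and 3 and 208, 242 and 249 CPM in cko 1, 2 and 3. In all 3 of these genes every cko library was well above both ctrl libraries, with log2 fold changes of 1.42 ± 0.12, 1.33 ± 0.12 and 1.16 ± 0.11 (SE). The edgeR adjusted p of these genes, by its quasi-likelihood test with Benjamini-Hochberg adjustment, was 0.00107, 0.00145 and 0.00148. Skil, a repressor of TGF-beta signalling, was the only tested substrate with a negative log2 fold change, -0.02, and its genotypes overlapped. Dtymk, at 0.01, Cdc25a, E2f1, Cdc6 and Skp2 were also not called, and Neurod2 was removed by the filter.

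Genes that act against or on the APC/C were described next. Of 5 deubiquitinases and phosphatases, edgeR called 0 in either direction, as did DESeq2 and an unadjusted p under 0.05. Their median log2 fold change was -0.07. Otud7b, which removes the chains that UBE2S builds, had 102 and 80.6 CPM in ctrl 1 and 3 and 77.3, 78.1 and 82.3 CPM in cko 1, 2 and 3. Usp37 and Usp44 had positive log2 fold changes, 0.11 and 0.29, against the sign of the other 3. The other ubiquitin ligase of the cell cycle, SCF, was described for comparison. Of its 9 genes, edgeR called 3 higher and 0 lower, as did DESeq2 and an unadjusted p under 0.05 (higher among all genes 7.86%, 9.46% and 15.9%), with a median of 0.13. Cks1b, a small adaptor that is also an APC/C substrate, had 18.1 and 20.4 CPM in ctrl 1 and 3 and 31.4, 33.1 and 32.9 CPM in cko 1, 2 and 3. Ccnf, an F-box protein with a cell cycle pattern of expression, had 30.4 and 39.7 CPM in ctrl 1 and 3 and 56.8, 80.8 and 74.1 CPM in cko 1, 2 and 3. Rbx1, the RING subunit of SCF, had 97.4 and 109 CPM in ctrl 1 and 3 and 129, 138 and 132 CPM in cko 1, 2 and 3. The genotypes were apart for all 3 genes, with log2 fold changes of 0.76 ± 0.10, 1.01 ± 0.18 and 0.37 ± 0.08 (SE). Without cko 2 or cko 3 only Cks1b, 1 of the 9, was called (1.95% and 2.06% of all genes), since the calls of Ccnf (edgeR adjusted p = 0.0527 and 0.0579) and Rbx1 (0.125 and 0.108) were lost. That of Rbx1 was lost also with the replicate block (edgeR adjusted p = 0.0803) and without cko 1 (0.0565). Cul1, Fbxw7, Btrc and Fbxw11 had log2 fold changes between -0.06 and -0.01.

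**Figure D5:**
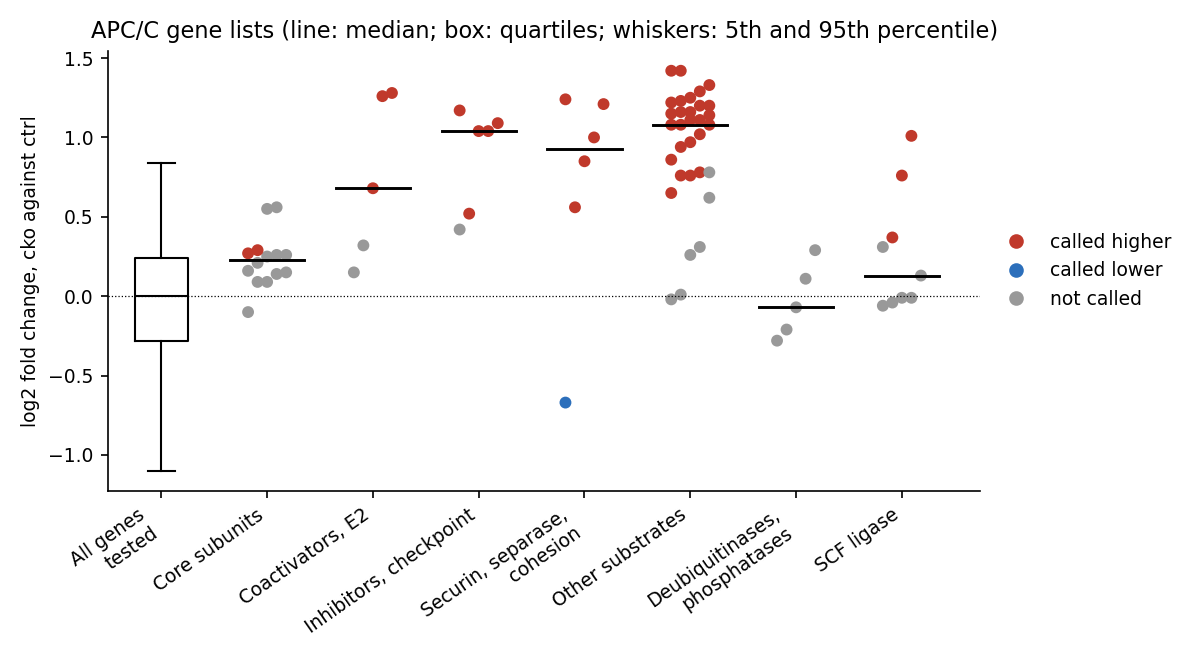
Log2 fold change of cko against ctrl for each tested gene of 7 lists, coloured by call, with lines at list medians, beside a box for all 16710 genes tested (quartiles, with whiskers at the 5th and 95th percentile). The medians run from -0.07 for deubiquitinases and phosphatases through 0.23 for core subunits to 1.08 for other substrates, and 1 point, Pttg1, is called lower.

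General markers of cycling cells moved with these genes. Mki67 had 254 and 269 CPM in ctrl 1 and 3 and 539, 705 and 683 CPM in cko 1, 2 and 3. Top2a and Pcna were also called higher, 3 of 3 markers, against 7.86% of all genes. The summed level of the 3 was 599 and 664 CPM in ctrl 1 and 3 and 1216, 1596 and 1537 CPM in cko 1, 2 and 3. As for Cdc20, Fzr1, Ube2c, Ube2s, Fbxo5 and Espl1, cko 1 was the lowest of the cko libraries and still above both ctrl libraries. The log2 fold changes of Mki67 (1.30) and Top2a (1.21) were close to those of Cdc20 and Ube2c. The part of more cycling cells in the rise of the APC/C genes was not tested.

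The labelled cell type was checked against its markers. All 9 NSC markers were present, with Vim the highest in CPM and Fabp7 the highest per kilobase of transcript. Their summed level was 8056 and 7075 CPM in ctrl 1 and 3 and 8963, 8373 and 8256 CPM in cko 1, 2 and 3. Nes, Hes5 and Prom1 were called higher and Slc1a3 lower, against 7.86% and 8.57% of all genes. Slc1a3 was not called without cko 2 (edgeR adjusted p = 0.0536). Among oligodendrocyte lineage markers, Mbp, Sox10 and Cnp were called lower and Olig1 and Olig2 higher (8.57% and 7.86% of all genes). The call of Olig1 was lost without cko 2 or cko 3 (edgeR adjusted p = 0.0812 and 0.0686) and that of Olig2 in 7 of 12 settings (up to 0.199 without cko 2). Mbp, a myelin protein, had 139 and 238 CPM in ctrl 1 and 3 and 10.5, 9.30 and 11.8 CPM in cko 1, 2 and 3. Of 5 astrocyte markers, S100b and Slc1a2 were called lower (8.57% of all genes), Slc1a2 not without cko 2 or cko 3 (edgeR adjusted p = 0.0625 and 0.0606). Their summed level was 2013 and 1029 CPM in ctrl 1 and 3, where Gfap alone gave 1008 CPM of ctrl 1, and 958, 547 and 579 CPM in cko 1, 2 and 3. Several markers of differentiated glia therefore fell where the APC/C regulators rose, and their part in the result was not tested.

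Markers of other cell types were read in the same way. Of 6 neuronal markers, 5 were tested and Dcx alone was called, lower (8.57% of all genes). The summed level of the neuronal markers, nearly all from Map2, was 1220 and 1092 CPM in ctrl 1 and 3 and 1179, 1168 and 1200 CPM in cko 1, 2 and 3. Intermediate progenitor markers summed to 14.3 and 11.2 CPM in ctrl 1 and 3 and 15.3, 16.6 and 18.2 CPM in cko 1, 2 and 3. Insm1 or Neurog2 gave the most CPM, and Eomes was at 0.184 CPM or less. Per kilobase of transcript, mean Neurog2 was above mean Insm1 (2.6 against 2.21 in ctrl and 3.42 against 2.88 in cko). Microglial markers summed to at most 0.48 CPM, mostly P2ry12, with Cx3cr1 and Tmem119 at 0 in all 5 libraries. Endothelial markers summed to at most 6.76 CPM, nearly all Kdr, with Cdh5 at 0 throughout. Mesenchymal markers, led in CPM by Col1a1 or Pdgfrb, summed to at most 4.38 CPM. Of the erythroid markers, Hbb-bs and Hba-a1 were at 0 and Alas2 was at 0.655 CPM or less. Apart from Kdr, at 3.71 to 6.43 CPM, the listed markers of microglia, vessels and blood were thus at 0.655 CPM or less. The endothelial marker Cldn5 had no row.

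Sex-linked genes also differed between genotypes. Xist, which is expressed from the inactive X chromosome of female cells, had 2889 and 2557 CPM in ctrl 1 and 3 and 787, 849 and 894 CPM in cko 1, 2 and 3. Kdm5d, on the Y chromosome, had 25.1 and 27 CPM in ctrl 1 and 3 and 68.9, 69.1 and 67.6 CPM in cko 1, 2 and 3. Ddx3y, Eif2s3y and Uty, also on the Y chromosome, were called higher as well, Ddx3y not without cko 1 or cko 3 (edgeR adjusted p = 0.0552 and 0.0708). All 5 libraries held reads of both Xist and the Y-linked genes. The ctrl libraries thus held more Xist and fewer Y-linked reads, and sex and genotype cannot be told apart in any of the differences above.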

How the data were processed

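By the study's methods, read quality was assessed in FastQC (v0.11.5) and low-quality reads were removed by NGSQC (v2.3.3). HISAT2 was the aligner and mm10 the genome, while the labels name GRCm39; the authors deposited gene counts. The counting tool, annotation and use of strand are not given in the sources used here, so overlapping genes are uncertain. Among the deposited columns, the other kind of value was that of ctrl replicate 2, a rounded average of ctrl 1 and 3, which was left out except in the alternative with all 6 columns. Symbols and exons came from GENCODE M21 (GRCm38), which matched 31836 of 32493 IDs, and Skp1 was matched through its RefSeq synonym.

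Counts were tested with edgeR (4.0.16; filterByExpr, TMM factors 0.9902 to 1.007, quasi-likelihood test with Benjamini-Hochberg adjustment) in R (4.3.3). Similar transcripts were sought with blastn (2.17.0). The fit was tested on a single simulated data set, in which far fewer genes were changed than were called here. In that run false calls exceeded the nominal share, more so with DESeq2 than with edgeR, and small changes were mostly missed. The alternatives were all 6 columns, DESeq2 (1.42.0), median-of-ratios and upper-quartile factors, no low-count filter or a stricter one (10 counts or more throughout), the replicate block, the study's threshold and each library left out. The genes named were the 10 chosen, and of each list the called genes with the 3 smallest p and those against its direction; other called or missing genes were named after their values were seen. The 10 genes and the lists were chosen with earlier results of these data known.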

Additional observations from a re-analysis of the deposited data

How the results depend on the processing

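The log2 fold changes of all 10 genes kept their sign in the 12 other fits, and Cdc20, Ube2c and Fbxo5 also their call. With all 6 columns, which take an average of ctrl libraries as a further library and understate the spread, 2865 genes were called higher, 2794 lower and 9 core subunits higher. DESeq2 called 6 core subunits higher (9.46% of all genes) and no filter 4 (6.02% of all genes, with 2237 genes lower). At least 10 counts in every library gave 1 (8.48% of all genes). At the study's threshold, set on the main edgeR fit, 399 genes were higher and 696 lower. Core subunits were then 0, the securin list 3 higher and 0 lower, SCF 1 and the 10 genes 0 lower. The replicate block rests on a shared number only (r = 0.107 over 16710 genes for the pairs 1 and 3). With it, core subunits called higher went to 1 (5.49% of all genes). The lower calls of the 10 genes and of the securin list went to 0 (6.37% of all genes). Leave-one-out ranges were 317 to 1812 genes higher and 416 to 2062 lower, both lowest without cko 2. For the 10 genes they were 3 to 6 higher and 0 to 1 lower, for core subunits 0 to 4, for inhibitors 3 to 5, for the securin list 3 to 5 higher and 0 to 1 lower, for SCF 1 to 3, and for deubiquitinases and phosphatases 0 to 1 lower. The log2 ratio difference ran from 0.79 to 1.11 for Cdc20 to Fzr1 and from 0.75 to 0.95 for Fbxo5 to Fzr1. The cause was not tested. Leaving out a ctrl library leaves 1, assumed to vary like cko. Only 2 ctrl libraries, both sexes' reads in each, and an unstated use of strand limit all results, and a gene at 0 counts could lie at up to 0.168 CPM.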
